A study of Mus musculus with 3 samples.

Results

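The genes of oxidative phosphorylation described here are 123 of the 51923 genes counted in single cells of the Mesp1 lineage of mouse embryos. The rule takes genes by symbol and uses no measured value, although the set was picked with earlier results of these data known. It takes all mt- genes, and the nuclear Nduf, Sdh, Uqcr, Cox4 to Cox8 and Atp5 families. The mitochondrial genome supplied 37 of them, which are 13 mRNAs, 2 rRNAs and 22 tRNAs. The nuclear genome supplied 86, of which 36 belong to complex I, 4 to complex II, 8 to complex III, 19 to complex IV and 19 to complex V. Complexes were assigned by symbol, so that Ndufa4, known as a complex IV subunit, is counted with complex I. The symbol rule kept 3 processed pseudogenes (Cox6c2, Atp5c1-ps and Atp5l2-ps), which held 20, 3 and 28 UMIs (unique molecular identifiers, each standing for 1 captured RNA molecule).

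The study asked what loss of Wnt secretion does to early mesoderm. Every embryo was on the C57BL/6 background and carried Mesp1-Cre, a recombinase active in nascent mesoderm, with the Ai9 reporter, which turns recombined cells red. Controls were Mesp1-Cre; Ai9; Wls fl/+ and mutants were Mesp1-Cre; Ai9; Wls fl/fl. Wls encodes the carrier needed to release Wnt ligands, so both groups lack at least 1 Wls allele in recombined cells, and Wls remains in cells that did not recombine. Red cells were sorted from pools of embryos tagged with lipid barcodes, and a sample is all cells of 1 barcode. Whether a barcode holds 1 embryo or more is not given in the sources used here, and 1 control sample at E8.0 holds cells of both sexes.

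There were 22 samples and 14777 cells. At E8.0, 3 control samples held 1549 cells and 3 mutant samples 1653. At E8.5, 2 control samples held 2542 cells and the single mutant sample 487. At E9.5, 6 control samples held 5733 cells and 6 mutant samples 2785. One control sample of 28 cells, labelled E7.5, lies outside the design. The samples came from 3 sequencing runs: E8.0 from run 1 alone, E8.5 from run 2 alone, and E9.5 from all 3 with both genotypes in each. The targeted gene followed the labels at every stage: Wls was at 35.9 to 46.1 CPM (UMIs of a gene per 1000000 UMIs of a sample) in E9.5 controls and at 8.54 to 12.1 CPM in E9.5 mutants. Sample totals ran from 134457 UMIs in an E9.5 control of 6 cells to 61307782. Of the cell barcodes, 23 occurred in more than 1 run. At E8.0 the share of sexed cells that were male was 0.983 to 0.991 in the mutants and 0.0234, 0.0216 and 0.531 in the controls, so sex and genotype cannot be told apart at that stage. Sex was also uneven at E9.5. In run 1 the male share was 0.0196 and 0.0219 in controls and 0.990, 0.0319 and 0.969 in mutants. In run 2 it was 0.0174 and 1.0 in controls and 1.0 in the mutant. In run 3 it was 0.953 and 0.0275 in controls and 0.0495 and 0.0267 in mutants.

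Oxidative phosphorylation passes electrons from NADH and succinate along complexes I to IV of the inner mitochondrial membrane, and complex V makes ATP from the proton gradient that they build. The mitochondrial DNA encodes a core part of complexes I, III, IV and V together with the rRNAs and tRNAs that translate it, and all other subunits, complex II included, are encoded in the nucleus. Heart muscle relies on this pathway as it matures, and several complex IV subunits have a second isoform used in striated muscle or in other specialised cells.

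Some members share sequence with other genes, which limits what their counts mean. Among stretches of 31 bases from the annotated transcripts, 100% of those of mt-Co2, 99.9% of mt-Co3, 99.5% of mt-Atp6, 98.9% of mt-Nd4l and 98.1% of mt-Nd3 also occurred in annotated nuclear copies. These 5 mRNAs held 2451 to 24142 UMIs, against 1487676 for mt-Cytb, which shared 6.55%, and 1059456 for mt-Nd1, which shared none. The nuclear copy of mt-Nd3, Gm28438, held 155495 UMIs, more than the 2451 of mt-Nd3 itself. The copies that share most with mt-Co2, mt-Co3, mt-Atp6 and mt-Nd4l (Gm28661, Gm28437, Gm10925 and Gm10222) held 0 UMIs. Values of these 5 mRNAs are therefore uncertain below, and sums over mitochondrial mRNAs hold few of their UMIs. mt-Co1 and mt-Nd4 shared 63.9% and 62.8%, which leaves their values uncertain in part. Among nuclear members Atp5o shared 49.3%, Atp5g2 40.2% and Uqcrb 34.8%. Cox4i2, Cox7a1, Cox6b2, Uqcrq and Ndufa8 shared none.

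**Figure D1:**
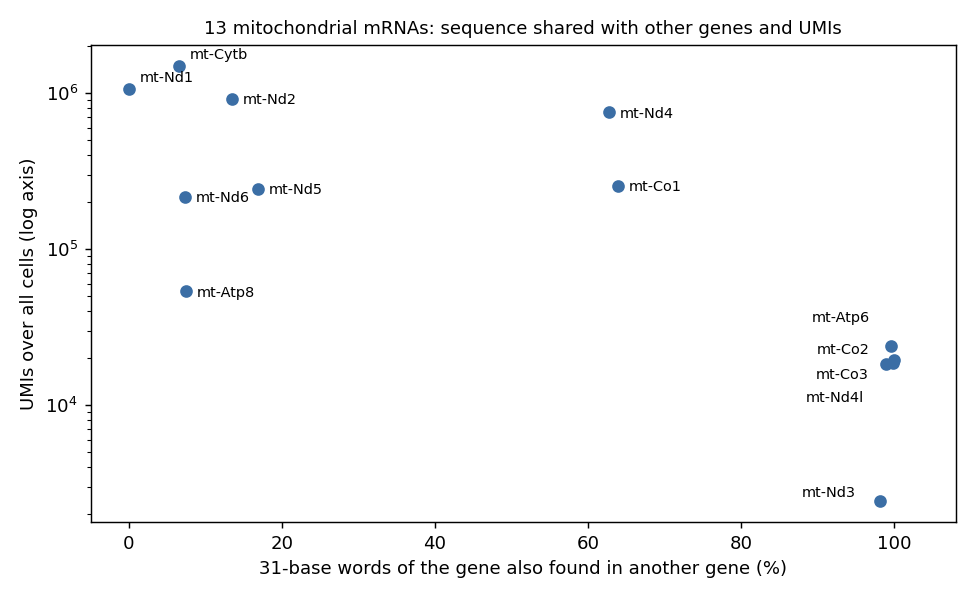
Total UMIs of each mitochondrial mRNA (vertical log axis) against the percentage of its 31-base stretches that also occur in another annotated gene (horizontal axis). The 5 mRNAs at 98.1% to 100% hold 24142 UMIs or fewer, while mt-Cytb, mt-Nd1 and the others with less sharing hold more.

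The 4 mitochondrial tRNAs that rose in mutants over all stages are shown first, since the mitochondrial mRNAs that changed in the same comparison fell. Sequences are GRCm38 transcripts of the M chromosome in the GENCODE annotation, written 5′ to 3′ on the strand of each gene, with the anticodon in capitals.
mt-Tp: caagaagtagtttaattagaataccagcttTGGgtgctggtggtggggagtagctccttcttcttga
mt-Td: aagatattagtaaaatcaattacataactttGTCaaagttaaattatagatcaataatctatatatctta
mt-Ts2: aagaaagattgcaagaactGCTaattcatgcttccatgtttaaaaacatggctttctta
mt-Tc: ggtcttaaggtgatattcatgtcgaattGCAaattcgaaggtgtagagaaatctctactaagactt
mt-Tp (M:15356-15422, minus strand) carries proline, mt-Td (M:6942-7011, plus strand) aspartate, mt-Ts2 (M:11613-11671, plus strand) serine and mt-Tc (M:5192-5257, minus strand) cysteine. Capture of these libraries starts at poly(A), so a UMI on a tRNA gene may come from a longer precursor. Since strand use is not given, the counts cannot tell a tRNA from RNA of the opposite strand.

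For 66 of the nuclear members RefSeq gives a promoter on GRCm38.p6. The 250 bases before the start are shown for Cox6a1, the widely used isoform of a complex IV subunit, for Atp5k, a complex V subunit, and for Cox7a1, a muscle isoform. Capitals mark matches to the letters CGCATGCG (NRF1, a factor known to regulate nuclear respiratory genes) and CCGGAAG (GABPA, another such factor), both strands searched.
Cox6a1 (5:115348959-115349208, minus strand): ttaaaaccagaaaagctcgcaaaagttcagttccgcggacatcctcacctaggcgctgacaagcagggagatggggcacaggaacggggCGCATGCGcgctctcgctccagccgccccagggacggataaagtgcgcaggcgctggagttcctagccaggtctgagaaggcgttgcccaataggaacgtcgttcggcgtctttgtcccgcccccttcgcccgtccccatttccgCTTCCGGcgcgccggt
Atp5k (5:108434400-108434649, minus strand): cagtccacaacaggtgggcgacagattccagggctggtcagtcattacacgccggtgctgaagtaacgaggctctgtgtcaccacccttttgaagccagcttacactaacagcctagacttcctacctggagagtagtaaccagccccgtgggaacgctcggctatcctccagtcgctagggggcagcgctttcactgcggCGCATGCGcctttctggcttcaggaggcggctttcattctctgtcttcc
Cox7a1 (7:30183921-30184170, plus strand): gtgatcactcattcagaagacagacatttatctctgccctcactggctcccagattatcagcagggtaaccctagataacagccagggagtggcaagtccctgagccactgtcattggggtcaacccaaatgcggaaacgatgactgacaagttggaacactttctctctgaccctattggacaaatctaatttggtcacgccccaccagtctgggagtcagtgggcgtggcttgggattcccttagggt
The NRF1 letters were in 7 of 66 member promoters (10.6%: Atp5k, Atp5l, Atp5j, Atp5g2, Cox6a1, Ndufa8 and Ndufa11), against 472 of 27025 promoters of all genes (1.75%). The GABPA letters were in 18.2% of member promoters and 7.83% of all. ACGTG, the core of the hypoxia response element, was in 19.7% of member promoters and 18.5% of all. The MEF2 letters, CTA and TAG with 4 bases between them, were in 1.52% against 3.70%, and the E-box CAGCTG in 9.09% against 14.7%. The promoter of Cox6a1 is 62.8% G or C with 26 CpG, and that of Cox7a1 51.2% with 4 CpG and neither of the marked motifs. These are matches of letters, not measured binding.

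The summed level of the pathway overlapped between genotypes at E8.0 and at E9.5. The 13 mitochondrial mRNAs took 1.95%, 1.92% and 1.82% of UMIs in the E8.0 controls and 1.95%, 1.83% and 1.82% in the E8.0 mutants, which overlapped. At E8.5 they took 1.09% and 1.12% in controls and 0.960% in the mutant. At E9.5 the lowest, median and highest control were 0.748%, 1.15% and 1.89%, and the mutants 0.623%, 1.10% and 1.57%. The E9.5 values moved with the run: run 1 controls averaged 1.85% and run 1 mutants 1.36%, run 2 controls 0.941% and the run 2 mutant 0.623%, run 3 controls 1.05% and run 3 mutants 0.926%. In each of the 3 runs the mutant mean lay below the control mean. Run 1 controls (1.81% to 1.89%) and mutants (1.23% to 1.57%) did not overlap. The run 2 mutant lay below both controls (0.748% and 1.13%). Run 3 controls (0.946% to 1.16%) and mutants (0.871% to 0.981%) overlapped. Nuclear members took 2.92% ± 0.0867 (SD, n = 3) of UMIs in E8.0 controls and 2.83% ± 0.0741 (n = 3) in E8.0 mutants. At E9.5 they took 2.91% ± 0.212 (n = 6) in controls and 2.83% ± 0.369 (n = 6) in mutants. Ribosomal protein genes took 11.4% to 12.96% of UMIs in E9.5 controls and 13.2% to 14.2% in E9.5 mutants, without overlap, and the median UMIs per cell averaged 19350 ± 5128 (n = 6) and 15508 ± 4546 (n = 6). The part of either in the differences below was not tested.

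Single cells spread far wider than samples. A cell had a median of 1.95% of its UMIs on mt- genes, with 0.438% and 15.7% at the 1st and 99th percentile and a highest value of 47.5%. The run medians were 2.27%, 1.32% and 1.60% for runs 1, 2 and 3. In 312 cells (2.11%) mt- genes took over 10% of the UMIs, and these cells had a median of 3606.5 UMIs against 21992 in the others. They were 1.46%, 4.73% and 0.248% of the cells of runs 1, 2 and 3 and held 3.44% of all mt- UMIs.

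**Figure D2:**
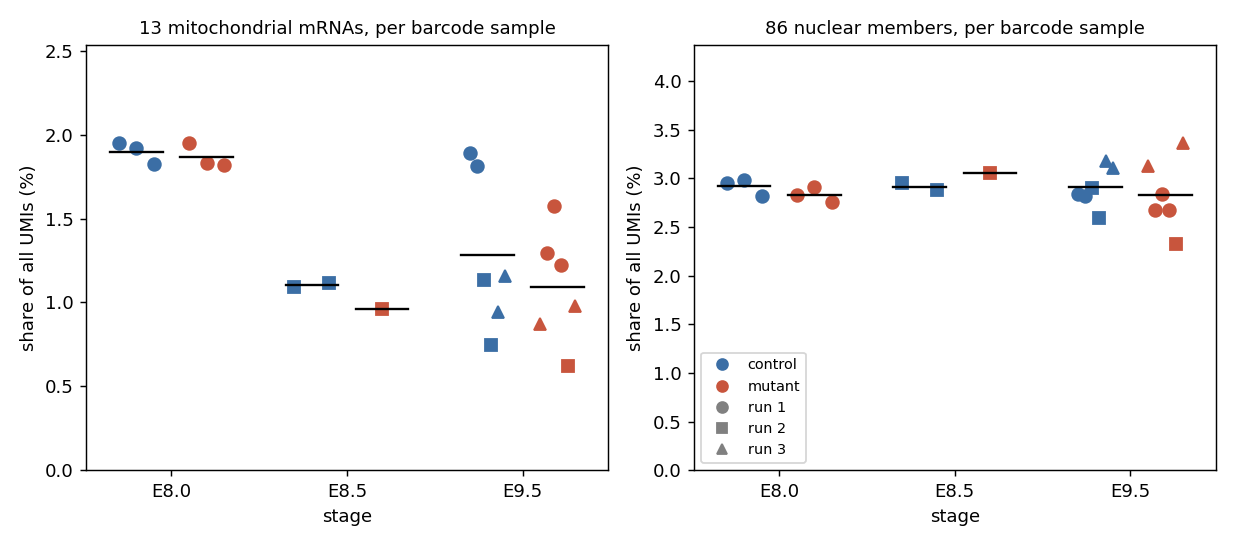
Share of each sample's UMIs (percent, vertical axis) on mitochondrial mRNAs and on nuclear members, by stage and genotype, 1 point per sample with the run marked. At E9.5 the mitochondrial share of run 1 samples (1.23% to 1.89%) lies above that of the other runs, and nuclear shares differ less.

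Over all stages, loss of Wls went with small changes in the pathway and a larger one in Cox4i2. In edgeR's quasi-likelihood test of samples, with terms for stage and run, 10.2% of 20831 genes (4.47% higher and 5.77% lower in mutants) passed an adjusted p of 0.05 (Benjamini-Hochberg over all genes tested). Of the 119 members that passed the filter on low counts, 8 rose and 16 fell in mutants. The median log2 fold change was -0.09 over these members and 0.02 over all genes tested. On total counts without TMM factors (edgeR's scaling between samples) the split was 10 higher and 8 lower. With a further term for the share of male cells, 10 members passed. In bulk sums, fewer cells of a type and less RNA per cell cannot be told apart. Cells of the blood class, described below, were 22.9% ± 12.9 (SD, n = 6) of E9.5 control cells and 17.3% ± 8.28 (n = 6) of E9.5 mutant cells. The direction differed between runs. In run 1 they were 8.66% and 8.38% of control cells and 21.1%, 10.9% and 17.9% of mutant cells. In run 3 they were 39.6% and 20.2% against 9.52% and 12.5%. In run 2 they were 27.0% and 33.3%, the latter in the control of 6 cells, against 31.6%. With blood- and cardiomyocyte-positive cells left out the median of the members was again -0.09.

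Counts by role were as follows. Of the mitochondrial mRNAs 0 rose and 6 fell, with a median of -0.22, and of the tRNAs 4 rose and 0 fell, with a median of 0.18. In complex I 1 rose and 5 fell (median -0.11), in complex III 0 rose and 2 fell (-0.16), in complex IV 3 rose and 1 fell (-0.08), and in complex V 0 rose and 2 fell (-0.10). No member of complex II passed. Each of these medians kept its sign on total counts and with the size factors of DESeq2, and under both 1 mitochondrial mRNA rose. The members that rose were Cox4i2, Cox6a2, Cox7a1, mt-Td, mt-Ts2, mt-Tp, mt-Tc and Ndufv3. Those that fell were mt-Nd1, mt-Nd4l, mt-Cytb, mt-Nd2, mt-Co2, mt-Atp8, Atp5g1, Atp5k, Ndufa5, Ndufa11, Ndufb6, Ndufs6, Ndufs8, Uqcrq, Uqcrc1 and Cox5a. Among the tRNAs that rose, mt-Tc lost its call by limma on the mean CPM per cell (adjusted p 0.194). mt-Ts2 lost its call with the male share as a covariate (adjusted p 0.0898).

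Most of the samples are from E9.5. At E9.5 10.3% of 17227 genes passed (5.71% higher, 4.55% lower), and of 117 members tested 5 rose and 8 fell, with 8 higher and 3 lower on total counts. With these 12 of the 22 samples left out, 0 members passed in edgeR and 25 had an unadjusted p under 0.05. The log2 fold changes were then 0.70 against 1.28 for Cox4i2, -0.26 against -0.57 for mt-Nd1 and 0.14 against 0.33 for Ndufv3. They were 1.14 against 0.88 for Cox6a2, 0.80 against 0.73 for Cox7a1, -0.24 against -0.31 for Ndufa5 and -0.22 against -0.30 for Uqcrq. Single-gene values are given for E9.5 first.

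Cox4i2 (2:152754173-152765037, plus strand) encodes the second isoform of complex IV subunit 4, which is known to be induced by low oxygen. Its level in the E9.5 controls was 18.2, 0, 12.1, 6.07, 18.5 and 19.5 CPM, where the 0 came from the control of 6 cells, whose depth allows up to 22.3 CPM. In the E9.5 mutants it was 49.6, 33.1, 40.2, 81.7, 37.6 and 68.6 CPM, so that the groups did not overlap. The log2 fold change was 1.85 ± 0.23 (SE) with an adjusted p of 0.000234. Within runs 1, 2 and 3 it was 1.77, 1.99 and 2.08, with adjusted p of 0.0295, 0.0197 and 0.0807. Run 2 held 1 mutant sample of 57 cells and 2 controls, of which 1 had 6 cells, so its p takes the lone mutant to vary like the controls. By limma on the mean CPM per cell the adjusted p was 0.113.

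At E8.0 Cox4i2 was at 17.8, 14.2 and 22.0 CPM in controls and 21.9, 32.0 and 26.5 CPM in mutants, overlapping by a narrow margin. At E8.5 it was at 12.6 and 8.40 CPM in controls and 22.6 CPM in the mutant. Cox4i2 remained the minor isoform: it made up 1.17% ± 0.789 (SD, n = 6) of Cox4i1 and Cox4i2 UMIs in E9.5 controls and 4.62% ± 2.03 (n = 6) in E9.5 mutants. The main isoform Cox4i1 was at 1080 ± 80.0 CPM in E9.5 controls and 1107 ± 161 CPM in mutants, with a log2 fold change of 0.03. Its share at E8.0 was 1.72% ± 0.457 (n = 3) for Cox4i2 in controls and 2.60% ± 0.451 (n = 3) in mutants.

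Ndufv3 (17:31520115-31531331, plus strand), an accessory subunit of the NADH-oxidising module of complex I, was the nuclear complex I member that rose. E9.5 controls had 204, 201, 248, 221, 197 and 203 CPM and E9.5 mutants 273, 361, 352, 305, 268 and 301 CPM, with no overlap. The log2 fold change was 0.52 ± 0.10 (adjusted p 0.00448), and 0.59, 0.76 and 0.39 within runs 1, 2 and 3, of which run 1 alone passed (adjusted p 0.0223). At E8.0 controls had 194, 206 and 211 CPM and mutants 213, 225 and 209 CPM, which overlapped.

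mt-Nd1 (M:2751-3707, plus strand) encodes a membrane subunit of complex I and shares no 31-base stretch with another gene. In run 1 of E9.5 it was at 4268 and 4095 CPM in controls and 2132, 2826 and 2129 CPM in mutants. In run 2 it was at 2422 and 1168 CPM in controls and 913 CPM in the mutant, and in run 3 at 2088 and 2549 CPM in controls and 1685 and 1560 CPM in mutants. Every mutant lay below both controls of its run. The log2 fold change was -0.78 ± 0.16 (adjusted p 0.00886), with -0.78, -0.66 and -0.72 within the runs and an adjusted p of 0.0232 in run 1 alone. By limma on mean CPM per cell the adjusted p was 0.161. At E8.0 mt-Nd1 was at 4234, 3678 and 3906 CPM in controls and 3899, 3619 and 3690 CPM in mutants, overlapping.

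mt-Cytb, the mitochondrial subunit of complex III, had E9.5 values of 5430 and 5133 CPM in run 1 controls and 3688, 4622 and 3238 CPM in run 1 mutants. In run 3 controls at 2494 and 3093 CPM overlapped mutants at 2636 and 2037 CPM. Its log2 fold change was -0.49 ± 0.13 (adjusted p 0.0246). The call was lost without 1 control of run 3, 1 control of run 1 or the run 2 mutant (adjusted p 0.0572, 0.0515 and 0.0784), and by limma it was 0.280. mt-Nd2 fell by 0.40 ± 0.12 on the log2 scale (adjusted p 0.048) and mt-Atp8 by 0.31 ± 0.09 (adjusted p 0.0391). On total counts neither passed (adjusted p 0.0625 and 0.153), nor by limma (0.476 and 0.153), and each call was lost in 9 of the 12 fits that left out 1 sample. The uncertain mt-Nd4l and mt-Co2 fell by 0.73 and 0.33, and on total counts mt-Co2 did not pass (adjusted p 0.0842). By limma neither passed (0.706 and 0.265). Not all mitochondrial mRNAs moved down: mt-Nd5 had a log2 fold change of 0.00 and mt-Co1, uncertain in part by its sharing, one of 0.28 (adjusted p 0.072).

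Of the 22 tRNAs mt-Tp, mt-Ts2 and mt-Td rose at E9.5 and 0 fell, with a median log2 fold change of 0.28. Their summed share of UMIs averaged 0.0434% in controls and 0.0506% in mutants of run 1, 0.0190% in both genotypes of run 2, and 0.0238% and 0.0373% in run 3. mt-Tp was at 43.8 and 41.8 CPM in run 1 controls of E9.5 and at 62.2, 59.6 and 66.6 CPM in run 1 mutants. In run 3 it was at 23.9 and 23.8 CPM in controls and 42.2 and 53.0 CPM in mutants, and in run 2 at 25.2 and 44.6 CPM in controls and 29.1 CPM in the mutant. Runs 1 and 3 thus separated the genotypes and run 2, with a control of 6 cells, did not. The log2 fold change was 0.64 ± 0.10 (adjusted p 0.00174). At E8.0 mt-Tp was at 54.1, 50.6 and 52.7 CPM in controls and 56.1, 58.6 and 52.3 CPM in mutants. mt-Ts2 depended strongly on the run, with 12.7 and 13.1 CPM in run 1 controls against 20.9, 16.8 and 23.6 CPM in run 1 mutants, and 2.09 and 2.26 CPM against 5.87 and 6.71 CPM in run 3. Its log2 fold change was 0.80 ± 0.18 (adjusted p 0.0125). The call was lost with the male share as a covariate (adjusted p 0.0531), by limma (0.134) and without either control of run 1 (0.0667 and 0.0573). mt-Td was near the lower limit, at most 2.90 CPM in E9.5 controls and 2.16 to 5.97 CPM in mutants, with a log2 fold change of 1.20 ± 0.25 (adjusted p 0.00951, and 0.134 by limma). Over all runs, sums over the rRNAs were 0.437% ± 0.222 (SD, n = 6) of UMIs in E9.5 controls and 0.449% ± 0.131 (n = 6) in mutants. Within run 1 controls, at 0.673% to 0.676%, lay above mutants, at 0.536% to 0.562%. Within run 3 controls, at 0.432% to 0.467%, lay above mutants, at 0.401% to 0.428%. The run 2 mutant, at 0.220%, lay between its controls, at 0.125% and 0.249%. The sums were not tested.

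Among nuclear members that fell, Atp5k, subunit e of ATP synthase, had a log2 fold change of -0.35 ± 0.09 at E9.5 (adjusted p 0.0318) and Ndufa11, a membrane-arm subunit of complex I, -0.27 ± 0.08 (adjusted p 0.0469). Neither passed on total counts (adjusted p 0.0766 and 0.115) or by limma (0.113 and 0.0951). The calls were lost in 8 and 10 of the 12 fits without 1 sample, and that of Ndufa11 also with no filter (0.0622). Others passed only over all stages. Uqcrq, a small subunit of complex III, was at 468 ± 70.9 CPM (SD, n = 6) in E9.5 controls and 375 ± 53.6 CPM (n = 6) in E9.5 mutants, with an all-stage log2 fold change of -0.30 ± 0.07 (adjusted p 0.00907). Atp5g1, which encodes the ring subunit c of complex V, had -0.34 ± 0.09 (adjusted p 0.0233). That call was lost on total counts (adjusted p 0.0538), without blood- and cardiomyocyte-positive cells (0.0591), with the male share (0.106) and by limma (0.0856), with log2 fold changes of -0.27, -0.29, -0.27 and -0.26. Ndufa5 had -0.31 ± 0.07 (adjusted p 0.00802), Uqcrc1 -0.27 (adjusted p 0.023) and Cox5a -0.27 (adjusted p 0.031). Of the other core subunits, Ndufs1, Ndufv1, Sdha, Sdhb, Uqcrfs1, Cox4i1, Atp5a1 and Atp5b did not pass, with all-stage log2 fold changes of -0.20, -0.18, -0.09, -0.20, -0.07, -0.02, -0.15 and -0.15.

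**Figure D3:**
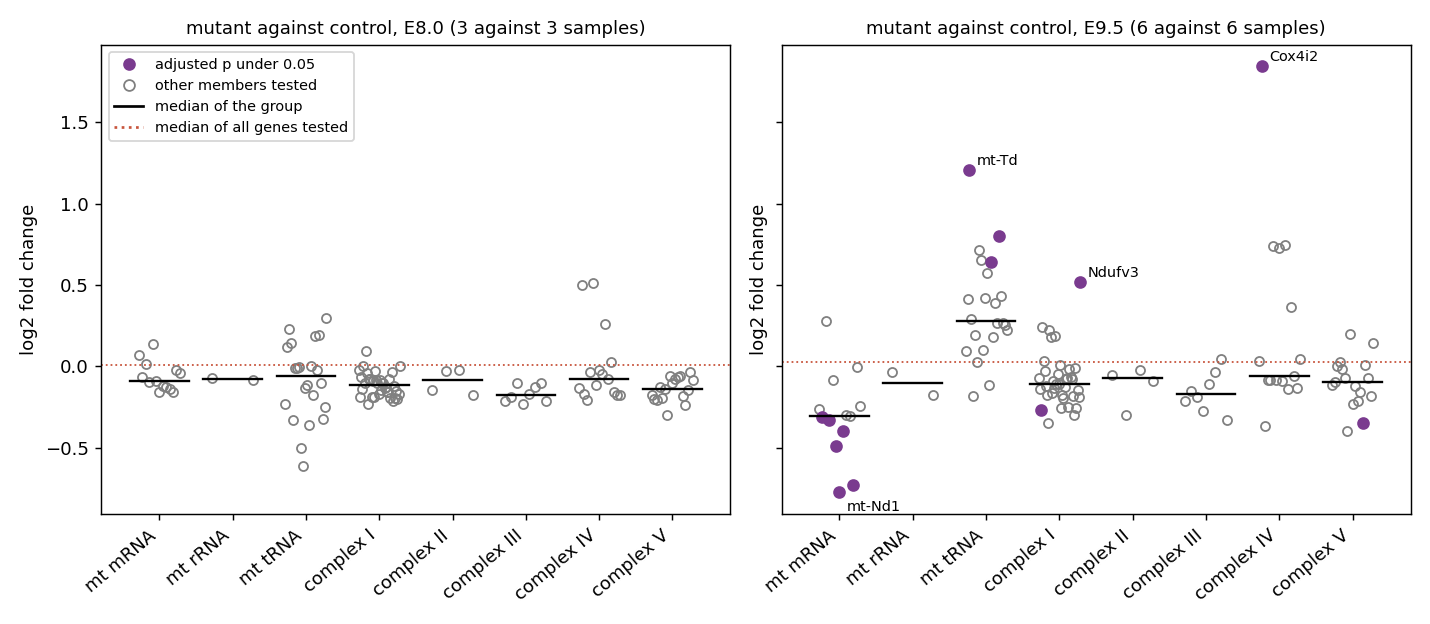
Log2 fold change of mutant against control for each tested member, grouped by role, at E8.0 (left) and E9.5 (right). Filled points passed an adjusted p of 0.05, bars are group medians and the dotted line is the median of all genes tested. No member passed at E8.0, and at E9.5 the mitochondrial mRNA median was -0.31 and the tRNA median 0.28.

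At E8.0 no difference was called. Of 16416 genes 0.0244% passed (0.00609% higher, 0.0183% lower), and of 117 members 0 passed in edgeR, in DESeq2 and in limma, with 20 at an unadjusted p under 0.05 and a lowest adjusted p of 0.49. Of these members 100 had a log2 fold change below 0, with a median of -0.10 against 0.01 over all genes. Cells of the blood class made up 25.3%, 27.9% and 8.45% of the E8.0 controls and 11.5%, 11.1% and 3.21% of the E8.0 mutants. Without blood- and cardiomyocyte-positive cells 74 of 116 members lay below 0, with a median of -0.02, and on total counts 70 of 117 did, with -0.02 against 0.09 over all genes. With the male share as a covariate 19 lay below 0 and the median was 0.13. An interaction term tested whether the mutants differed from controls more at E9.5 than at E8.0. It passed for 0.464% of 17872 genes (0.425% positive, 0.0392% negative) and for 0 of 117 members in edgeR, with 15 at an unadjusted p under 0.05 and 4 called by DESeq2. mt-Tp came nearest, with a difference of 0.64 ± 0.14 (adjusted p 0.0562). Cox4i2 had 1.34 ± 0.35 (adjusted p 0.111), Ndufv3 0.51 ± 0.13 (adjusted p 0.11) and mt-Nd1 -0.61 ± 0.24 (adjusted p 0.31). In the edgeR fit a stage difference in the genotype effect was thus not shown for any member.

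Cox6a2 and Cox7a1, the muscle isoforms of 2 complex IV subunits, passed over all stages (0.88 ± 0.25, adjusted p 0.0297, and 0.73 ± 0.21, adjusted p 0.0284) but not at E9.5. With the male share as a covariate the adjusted p was 0.0788 and 0.0815, and by limma 0.106 and 0.102. The calls were lost in 7 and 5 of the 22 fits without 1 sample. Cox6a2 was at 7.20, 7.44, 51.9, 26.4, 11.2 and 6.49 CPM in E9.5 controls and 17.2, 55.5, 38.6, 20.2, 22.0 and 11.2 CPM in mutants, with wide overlap. Without cells positive for blood or cardiomyocyte markers the log2 fold change of Cox6a2 was 0.41 (adjusted p 0.605) and that of Cox7a1 0.55 (adjusted p 0.149). Cells of the cardiomyocyte class made up 5.73% ± 4.47 (SD, n = 6) of E9.5 control cells and 7.67% ± 4.84 (n = 6) of E9.5 mutant cells, and at E8.5 3.15% and 0% of control cells and 12.5% of mutant cells. Within cardiomyocyte-positive cells neither gene passed, with log2 fold changes of 0.28 (adjusted p 0.428) and 0.36 (adjusted p 0.226).

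From E8.0 to E9.5, 19.5% of 20831 genes passed (10.4% higher, 9.05% lower), and 10 members rose and 6 fell. The largest rises were in complex IV isoforms. Cox6a2 went from 1.71 to 6.71 CPM over the 6 samples at E8.0 to 6.49 to 55.5 CPM over the 12 at E9.5, with a log2 fold change of 2.65 ± 0.48 (adjusted p 0.000538). Cox6b2, an isoform known from testis, went from 12.2 to 19.5 CPM at E8.0 to 25.1 to 149 CPM at E9.5 without overlap, with 1.91 ± 0.32 (adjusted p 0.000229). Both came down without blood- and cardiomyocyte-positive cells, to 1.55 (adjusted p 0.0262) and 0.54 (adjusted p 0.0135).

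The other rises were smaller and lay mainly in complex I: Ndufa6 (0.53 ± 0.14), Ndufs3, Ndufv3 (0.43 ± 0.11), Ndufb11 and Ndufa7, with Cox6a1 (0.37 ± 0.12), Atp5d and Sdhc. The members that fell were mitochondrial: mt-Nd4 (-0.65 ± 0.15, uncertain in part by its sharing), mt-Cytb (-0.65 ± 0.15), mt-Nd1 (-0.65 ± 0.18), mt-Nd2 (-0.58 ± 0.14), mt-Tn and mt-Nd6. E8.0 was sequenced in run 1 alone, and the mitochondrial share of E9.5 cells differed by run. In run 1, which holds both stages, 11 members rose and 11 fell. The share of all genes passing in that fit is not given, so these counts have no general rate beside them. Of the members just named, Cox6a2 (1.74), Cox6b2 (1.25), mt-Cytb (-0.32, adjusted p 0.0186), mt-Nd4 (-0.31), mt-Nd2 (-0.28) and mt-Nd6 (-0.25) passed in run 1. Ndufa6, Ndufs3, Ndufv3, Ndufb11, Cox6a1, Atp5d, mt-Nd1 and mt-Tn did not. Of the members called in either fit, 9 changed sign in run 1 alone. Among them mt-Co1, mt-Rnr1 and mt-Rnr2 were higher at E9.5, and mt-Nd4l, Cox5a, Cox7a2 and Ndufa4 were lower. Without blood- and cardiomyocyte-positive cells Cox6a1 (adjusted p 0.252), Ndufs3 (0.0843) and mt-Tn (0.0830) were no longer called. Cox6a1 was also lost on total counts (0.0565) and by limma (0.113), and mt-Tn by limma (0.0634) and without cells over 10% mt- UMIs (0.0746). On total counts, where the median of all genes moved from 0.00 to -0.10, 7 members rose and 9 fell.

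Marker genes outside the pathway sorted cells into lineages, each cell needing UMIs of a set number of the markers and of no other class. Cardiomyocyte markers (4 of Tnnt2, Ttn, Actn2, Myh6, Tnni1 and Myl4) gave 888 cells, blood 2226, paraxial mesoderm 2230, splanchnic mesoderm 1717, second heart field 901, endothelium 404, neural 268 and proepicardium 237. A further 4408 cells were positive for no class and served as the comparison, and 1442 cells positive for several classes were set aside. Cardiomyocyte markers were positive in 1454 cells, those positive for several classes included, of which 561 sat exactly at the limit of 4 markers, and 1175 further cells had 1 marker fewer. In second heart field 1168 of 1586 positive cells sat at the limit of 2 markers with 4470 cells 1 below, in splanchnic mesoderm 2021 of 2510 with 3969 below, and in paraxial mesoderm 1302 of 2588 with 2892 below. In proepicardium 332 of 521 sat at the limit, in neural cells 171 of 367, in endothelium 121 of 523 and in blood 87 of 2348. Median depth was 20253 UMIs in cardiomyocyte cells, 27892.5 in blood cells and 18041 in cells of no class. Cells with over 10% of UMIs on mt- genes were 4.47% of the cells of no class. They were 2.93% of cardiomyocyte, 2.47% of blood, 0.444% of second heart field, 0.524% of splanchnic and 0% of proepicardial cells. The lineage tests were not repeated without them, which limits the reading of lower mt- values in a class. Globin genes took 30.6% of the UMIs of the blood class and at most 0.239% of those of the other single classes and of cells positive for none, so the blood class matched its label.

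Cardiomyocyte-positive cells held more RNA of nearly the whole nuclear part of the pathway. Nuclear members took 4.18% ± 0.787 (SD, n = 18) of their UMIs against 2.80% ± 0.208 (n = 18) in cells of no class from the same embryo pools, and mt- genes 2.10% ± 0.417 against 2.11% ± 0.490. In the test with sample as a block, 60.8% of 13969 genes passed (25.8% higher, 35.0% lower). Of 115 members 84 were higher and 9 lower, with a median log2 difference of 0.53 against -0.10 over all genes. Of the 80 nuclear members tested 78 were higher and 1, Atp5g2, was lower (-0.27). Cox6b2 had a log2 difference of -0.10 (adjusted p 0.75).

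Every complex took part. The median log2 difference was 0.55 in complex I, 0.63 in complex II, 0.70 in complex III, 0.74 in complex IV and 0.67 in complex V. Each of the core subunits named here was higher, with Ndufs1 at 0.56, Ndufv1 at 0.42, Sdha at 0.58, Sdhb at 0.68, Uqcrfs1 at 0.83, Cox5a at 0.89, Atp5a1 at 0.59 and Atp5b at 0.78. The mitochondrial mRNAs had a median of 0.14, the tRNAs -0.28, and mt-Rnr1 and mt-Rnr2 were lower by -0.47 and -0.21. On total counts the median of all genes moved from -0.10 to -0.20, and the split was 80 higher and 11 lower.

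The muscle isoforms differed most. Cox6a2 (7:128205435-128206387, minus strand) was at 200 ± 129 CPM (SD, n = 18; 20.8 to 381) in cardiomyocyte cells and 0.863 ± 0.658 CPM in cells of no class, a log2 difference of 8.16 ± 0.16 (adjusted p 3.2e-70). In every other class it stayed at or below 8.95 CPM in any sample. Its share of Cox6a1 and Cox6a2 UMIs was 27.9% ± 13.6 (n = 18) in cardiomyocyte cells and 0.294% ± 0.222 (n = 18) in cells of no class. By stage and genotype the cardiomyocyte level was 39.1 ± 21.8 CPM (n = 3) and 44.4 ± 19.3 CPM (n = 3) in E8.0 controls and mutants, 249.6 and 249.03 CPM in 1 sample each at E8.5, and 257 ± 102 CPM (n = 5) and 313 ± 33.9 CPM (n = 5) at E9.5. The 6 samples at E8.0 all lay below those of the later stages. This difference between stages within the class was not tested.

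Cox7a1 (7:30184144-30186078, plus strand) was at 125 ± 63.6 CPM in cardiomyocyte cells against 3.50 CPM in cells of no class, a log2 difference of 5.32 ± 0.18. It made up 10.3% ± 4.08 (n = 18) of Cox7a1 and Cox7a2 UMIs there and 0.528% ± 0.250 in cells of no class. Second heart field cells, from which heart muscle is added, were higher than cells of no class in Cox7a1 by 0.90 ± 0.30 on the log2 scale and in Sdhc by 0.21 ± 0.05, while 8 mitochondrial mRNAs and rRNAs were lower, mt-Nd1 by -0.30 ± 0.06 among them. In that class 14.0% of genes passed (5.17% higher, 8.83% lower). Cox8b and Cox7b2, further tissue isoforms, held 35 and 114 UMIs in the whole series, and Cox8c 2.

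**Figure D4:**
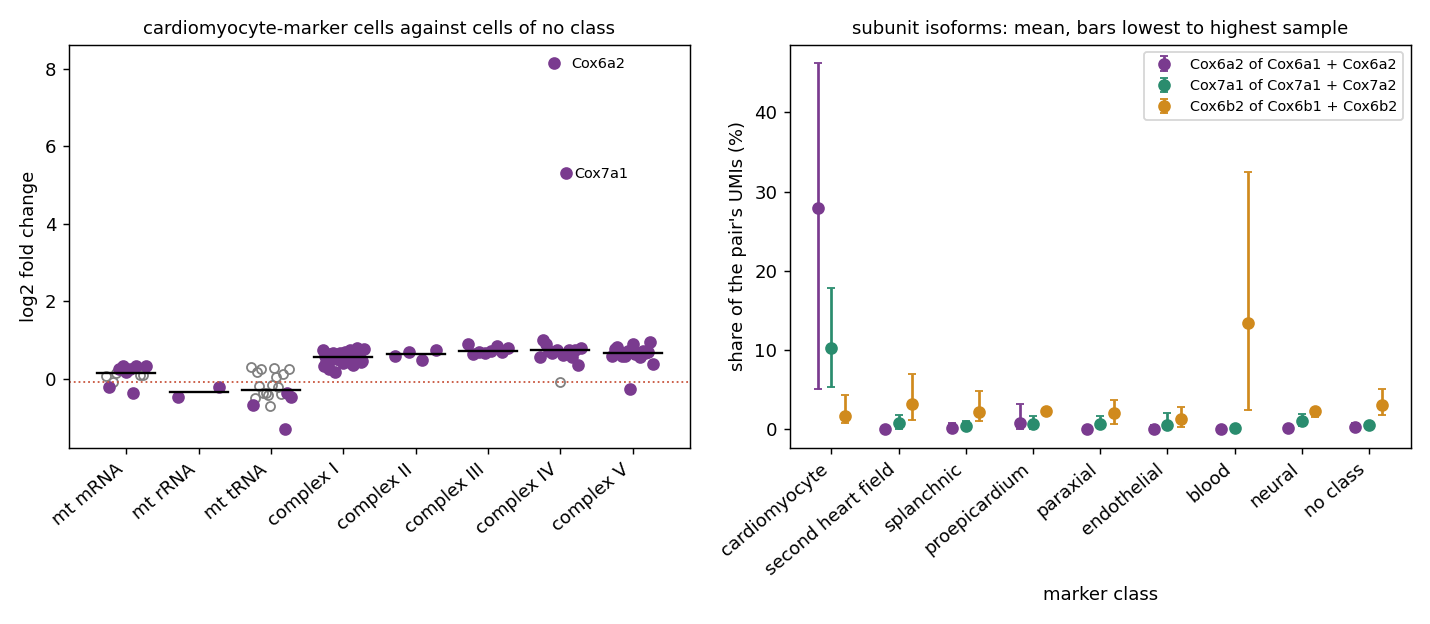
Log2 difference of each member between cardiomyocyte-positive cells and cells positive for no class, by role (left), and isoform shares by class (right, percent of the UMIs of the isoform pair, mean over samples with bars from the lowest to the highest sample). Filled points on the left passed an adjusted p of 0.05, black bars are group medians and the dotted line is the median of all genes tested. Cox6a2 at 8.16 and Cox7a1 at 5.32 stand above the nuclear medians of 0.55 to 0.74.

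Blood cells differed in isoforms, and their other values hung on the scaling. With TMM factors 97 members were higher and 6 lower than in cells of no class, and on total counts 34 were higher and 45 lower, as the median of all genes moved from -0.09 to -1.003. Here 78.9% of genes passed under TMM (37.0% higher, 41.9% lower). Nuclear members took 2.83% ± 0.428 (SD, n = 16) of all UMIs, globin included, close to the 2.80% in cells of no class. Globin genes held 30.6% of blood UMIs and 0.239% of those of cells of no class. These shares of all UMIs therefore do not compare the RNA other than globin. Under each scaling Cox6b2 was higher, at 101 against 19.3 CPM, with a log2 difference of 3.38 ± 0.17 under TMM and 2.30 on total counts. It made up 13.4% ± 8.35 (n = 16) of Cox6b1 and Cox6b2 UMIs in blood and 3.07% ± 1.00 (n = 18) in cells of no class. Cox4i2 was lower in blood, at 1.22 against 35.2 CPM, with a log2 difference of -3.74 ± 0.30.

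In endothelial cells 17 members were higher and 5 lower, while 42.4% of genes passed (17.7% higher, 24.7% lower). Ndufa8, an accessory subunit of complex I (2:36036326-36049406, minus strand), was the member raised most. It was at 371 ± 75.0 CPM (SD, n = 9; 254 to 465.9) against 172 ± 22.0 CPM (n = 18; 143 to 225), without overlap, a log2 difference of 1.12 ± 0.06 (adjusted p 1.17e-31). The next was Ndufs8 at 0.37 ± 0.07, and Cox4i2 was lower by -1.63 ± 0.36. On total counts 9 members were higher and 6 lower.

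Paraxial cells had 12 members higher and 6 lower (of all genes 19.8%, 7.6% higher and 12.2% lower), with Ndufa11 at 0.27 ± 0.06 and Cox4i2 at -1.39 ± 0.21. On total counts 5 were higher and 7 lower. Splanchnic cells had 3 higher and 8 lower (of all genes 14.7%, 6.93% higher and 7.74% lower), with 6 tRNAs and both rRNAs lower and Cox4i2 at 0.48 ± 0.17 (adjusted p 0.047). With 1 marker more required Cox4i2 turned to -0.24 (adjusted p 0.674), and it did not pass on total counts (0.0836) or in DESeq2 (0.208). On total counts 0 were higher and 6 lower. Proepicardial cells had 0 higher and 7 lower, all mitochondrial (of all genes 13.6%, 5.87% higher and 7.7% lower), and on total counts 1 higher and 0 lower. Neural cells had 1 higher, Ndufa1 at 0.39 ± 0.12, and 8 lower (of all genes 14.1%, 6.24% higher and 7.82% lower), with 1 and 3 on total counts.

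When each class was tested alone, with terms for stage and run, Cox4i2 rose in mutants in cardiomyocyte cells, paraxial cells and cells of no class. In cardiomyocyte-positive cells 2.14% of 11184 genes passed (1.63% higher, 0.51% lower), and of 111 members 5 rose and 2 fell. Cox4i2 rose by 1.36 ± 0.23 on the log2 scale (adjusted p 0.0017), mt-Tp by 0.94 ± 0.16, mt-Tc by 0.93, mt-Ta by 0.53 and Ndufv3 by 0.41 ± 0.09, and mt-Nd1 (-0.49 ± 0.11) and mt-Cytb (-0.38 ± 0.10) fell. On total counts 4 rose and 3 fell.

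In paraxial cells 6.79% of 12699 genes passed (3.46% higher, 3.32% lower), and of 114 members 12 rose and 13 fell. Cox4i2 rose by 2.49 ± 0.32 (adjusted p 0.000255), from 5.07 ± 2.08 CPM (SD, n = 4) in E9.5 controls to 36.1 ± 14.8 CPM (n = 4) in E9.5 mutants. Ndufv3 rose by 0.46 ± 0.08 and mt-Tp by 0.80 ± 0.11, and 6 further rises were in tRNAs (mt-Ts2, mt-Ti, mt-Td, mt-Tl2, mt-Tc and mt-Ta). mt-Nd1 fell by 0.63 ± 0.11 on the log2 scale, with the uncertain mt-Nd4l, the in part uncertain mt-Nd4, mt-Cytb, mt-Nd2, mt-Rnr2, Uqcrc1 and Uqcrq also down.

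Cells of no class, with 12.3% of 12544 genes passing (5.29% higher, 7.0% lower), had 5 members that rose (Cox4i2, Cox6b2, Ndufv3, Ndufa6 and Cox7a2l) and 27 that fell, among them mt-Nd1 (-0.58 ± 0.11), Atp5g1 (-0.30), Uqcrq (-0.30), Sdhb (-0.29) and Cox5a (-0.28). On total counts 7 rose and 20 fell. The members that fell there came from each of complexes I to V.

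In edgeR with its filter no member passed in 3 classes. In blood cells 0 of 114 members passed in edgeR (0.00874% of genes, all of them higher), with 3 at an unadjusted p under 0.05 and 0 by DESeq2. In second heart field cells 0 of 106 passed (0.474% of genes, 0.316% higher and 0.158% lower), with 37 at an unadjusted p under 0.05 and 6 by DESeq2, and in splanchnic cells 0 of 113 (0.0238% of genes, 0.0159% higher and 0.00793% lower), with 20 and 1. Wls itself did not pass in blood cells (-1.89 ± 0.37, adjusted p 0.172). Whether the genotype effect differs between classes was not tested.

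The mean of Cox4i2 at E9.5, over samples of all runs, was higher in mutants than in controls in each class that held samples of both genotypes. The E9.5 means were 41.97 ± 15.6 CPM (SD, n = 5) in controls and 158 ± 84.8 CPM (n = 5) in mutants for cardiomyocyte cells, 18.1 ± 8.16 CPM (n = 4) and 111 ± 61.4 CPM (n = 3) for second heart field cells, and 42.9 ± 24.4 CPM (n = 4) and 84.3 ± 52.8 CPM (n = 4) for splanchnic cells. Proepicardial cells had 9.18 CPM in 2 controls and 107 CPM in 2 mutants. Blood cells had 1.11 ± 1.14 CPM (n = 5) and 2.20 ± 2.30 CPM (n = 4), with the groups overlapping. In run 3 the blood cells of the mutant, 35 in number, held 0 UMIs and those of each control 1 UMI, too few for a direction. Single mutant samples ran from 42.3 to 264 CPM in cardiomyocyte cells and from 46.9 to 169 CPM in second heart field cells. In splanchnic cells they ran from 38.9 to 141 CPM, so the mutant ranges of these classes overlapped. The genotypes also overlapped within cardiomyocyte and within splanchnic cells. In run 3 a cardiomyocyte mutant sample at 42.3 CPM lay below a control at 51.2 CPM. In run 1 a splanchnic mutant sample at 38.9 CPM lay below both controls, at 45.1 and 52.7 CPM. Each other mutant sample of cardiomyocyte and splanchnic cells lay above the controls of its run.

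mt-Nd1 was lower in mutant than in control cells of the same class at E9.5: 2288 ± 535 against 3846 ± 919 CPM in cardiomyocyte cells, 1993 ± 566 against 3497 ± 853 CPM in paraxial cells and 2085 ± 591 against 3333 ± 918 CPM in cells of no class. In blood cells the means were 2068 ± 644 and 2579 ± 1035 CPM. The runs differ in level and are mixed differently in the groups, but in runs 1 and 3 each mutant sample of these 4 classes lay below both or the only control of its run. mt-Tp was at 88.6 ± 26.5 against 30.6 ± 8.89 CPM in cardiomyocyte cells and 66.6 ± 6.96 against 28.8 ± 7.83 CPM in paraxial cells, with the mutants above the controls of their run. In blood cells mt-Tp had no such direction: run 1 mutants at 36.8, 39.7 and 42.4 CPM lay below controls at 48.8 and 49.2 CPM, and the run 3 mutant at 28.9 CPM above controls at 21.9 and 26.0 CPM. Ndufv3 was at 292 ± 19.4 against 186 ± 13.6 CPM in paraxial cells and in blood cells at 148 to 159 CPM in mutants and 141 to 161 CPM in controls, overlapping.

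**Figure D5:**
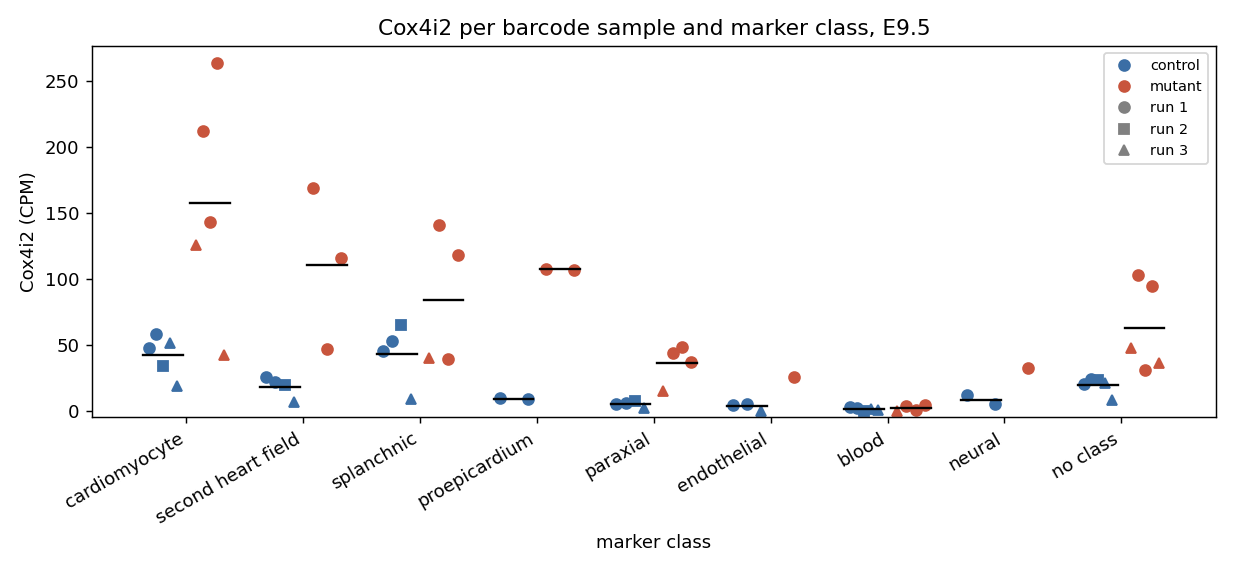
Cox4i2 in CPM (vertical axis) in each class of E9.5 cells, 1 point per sample with at least 20 cells of the class, controls and mutants side by side. Paraxial controls average 5.07 CPM and mutants 36.1 CPM, while blood samples of both genotypes lie between 0 and 4.53 CPM.

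Other genes of the pathway, described from lists chosen with earlier results of these data known, fell or did not pass over all stages, apart from members of the low-oxygen list. Over all stages 4.47% of genes rose and 5.77% fell. Of 77 tested proteins of the mitochondrial ribosome 0 rose and 39 fell in mutants (median -0.21 against 0.02 over all genes), led by Mrpl20 (-0.51 ± 0.08). Of 43 assembly factors 0 rose and 12 fell (-0.16), of 16 citrate cycle genes 0 rose and 4 fell (-0.14), and of 16 genes of mitochondrial DNA expression and biogenesis 0 rose and 3 fell (-0.13). Of 5 other subunits and carriers 1 rose, Ndufa4l2, which is also in the low-oxygen list, and 2 fell. The electron carrier Cycs fell by 0.54 ± 0.11 on the log2 scale (adjusted p 0.00433) and Cyc1 of complex III by 0.37 ± 0.07 (adjusted p 0.00321). Within classes, mitochondrial ribosomal proteins that fell were 0 in blood, cardiomyocyte and splanchnic cells (of all genes 0.0%, 0.51% and 0.00793%). They were 2 in second heart field (0.158%), 8 in paraxial (3.32%) and 29 in cells of no class (7.0%). Under TMM 73 of 75 were higher in blood than in cells of no class (37.0% of all genes). The list counts were not repeated on total counts, with the male share or without blood cells. At E8.0, where 0.0244% of all genes passed, no gene of these lists passed. The median of the mitochondrial ribosomal proteins was nevertheless -0.20 at E8.0 and -0.22 at E9.5, with 1 and 6 of 77 above 0. Medians at E8.0 and E9.5 were -0.16 and -0.11 for assembly factors and -0.14 and -0.16 for the citrate cycle. Sex and genotype cannot be told apart at E8.0. In cardiomyocyte cells 15 of 16 citrate cycle genes were higher than in cells of no class, with a median log2 difference of 0.56, beside 20 higher and 14 lower of 75 mitochondrial ribosomal proteins. Of all genes 25.8% were higher there and 35.0% lower.

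The list of genes known to shift respiration under low oxygen went up. Of its 8 members 7 rose over all stages (median 0.77) and at E9.5 (median 1.12), where 5.71% of all genes rose. At E9.5 Ndufa4l2, a relative of the complex IV subunit Ndufa4, rose by 3.37 ± 0.23, Bnip3, a mitophagy receptor, by 2.04 ± 0.14, Pdk1, which restrains pyruvate entry to the citrate cycle, by 1.28 ± 0.12 and Higd1a by 0.79 ± 0.09. Lonp1 had 0.25 ± 0.09 (adjusted p 0.083). Ndufa4 itself, a member, had a log2 fold change of -0.17 at E9.5 (adjusted p 0.31). Of Ndufa4 and Ndufa4l2 UMIs, Ndufa4l2 made up 0.887% ± 0.453 (SD, n = 6) in E9.5 controls and 8.17% ± 3.95 (n = 6) in mutants. This list includes Cox4i2, and it was chosen with its direction known, so it is no independent evidence of that direction. The interaction of genotype with stage passed for 5 of its members in edgeR, where 0.464% of all genes passed (0.425% positive).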

How the data were processed

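Per the labels' protocols, reporter-positive cells were barcoded with MULTI-seq lipids, sorted, pooled and sequenced as 10x Chromium v3 libraries. The authors deposited raw UMI counts per gene and cell, mapped with kallisto and bustools 0.46.1 on GRCm38 per the submitters' processing notes, which also name Cell Ranger. The annotation, strand use and cell filters are not given in the sources used here. Genes were matched by symbol to GENCODE M21 (GRCm38), and promoters come from RefSeq (GRCm38.p6).

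Counts were summed per barcode sample (22 samples) and tested in R 4.3.3 with edgeR 4.0.16: low genes were removed by filterByExpr, samples scaled by TMM, and the two-sided quasi-likelihood test adjusted over all genes tested (Benjamini-Hochberg, threshold 0.05). The SE beside an edgeR log2 fold change was derived from the test, as the absolute fold change on that scale divided by the square root of the F statistic. The all-stage genotype model had terms for stage and run, E9.5 had run, E8.0 none, and the stage comparison had genotype. Nothing shows that samples are separate litters, so p-values measure the spread between barcode samples. Lineages came from marker UMIs, with at least 20 cells per sample and class and sample as a block. Doublets were not called, and cells positive for several classes were left out of the lineage tests. CPM is a gene's UMI count per 1000000 UMIs of its sample, and the limit for a count of 0 is 3 counts, covering counting error only.

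Members and lists were chosen with earlier results of these data known. Named members are the 8 with the largest changes in each direction among those passing in a comparison, the mitochondrial mRNAs and rRNAs, 10 core subunits and the isoform families. Alternatives were DESeq2 1.42.0, limma 3.58.1 on log2(mean CPM per cell + 1), other scalings and filters, the male share as a covariate, single runs, leaving out cell classes and leaving out each sample in turn. Leaving out cells with over 10% mt- UMIs was chosen after seeing the data.

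On simulated counts with known changes of 1 and 2 on the log2 scale, edgeR recovered 76% and 92% for the all-stage genotype comparison (19489 genes, 9 false calls). It recovered 82% and 97% for E9.5 (16734 genes, 8 false calls) and 74% and 93% for E8.0 (16115 genes, 11 false calls). For the stage comparison (19534 genes) it recovered 69% and 93%, for the interaction (17443 genes) 40% and 80%, and for the cardiomyocyte lineage (12396 genes) 87% and 92%. The simulated counts held no differences by run, sex or cell mix and no changes below 1. These rates therefore do not give the recovery of the smaller changes reported for most members. Scripts ran in Python 3.11.15 with numpy 2.4.6, pandas 2.3.3 and scipy 1.17.1, and figures were drawn with matplotlib 3.10.9.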

Additional observations from a re-analysis of the deposited data

Results flagged for a closer look

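Among 48 checks of a quantity in a group of 4 to 10 samples, of which chance alone would single out about 1 in 20, the E9.5 mutant sample of run 2, with 57 cells, lay apart from the other mutants. Its Cox6b2 level was 149 CPM, against 35.2 to 76.1 CPM in the other 5 E9.5 mutants, and the gap was 0.640 of the whole range. Its Atp5k level was 205 CPM, against 454 to 570 CPM in the others, with a gap of 0.681 of the range. The blood class, in which Cox6b2 was higher, made up 31.6% of the cells of this sample. In the other E9.5 mutants it made up 9.52% to 21.1%, and the part of this in the Cox6b2 value was not tested.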

How the results depend on the processing

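No paired analysis was possible because the barcode numbers of control and mutant samples are not shared. The count of members passing moved by over 1.5 times as follows, and the cause was not tested in any of these cases. Shares of all genes passing under these settings, or with 1 sample left out, are not given. The counts therefore do not show whether members moved apart from other genes. Over all stages 24 passed, against 10 with limma, 10 with the male share as a covariate, 0 in run 1, 2 or 3 alone, 0 without the E9.5 samples and 38 without samples of under 20 cells. At E9.5 13 passed, against 30 with DESeq2, 23 with no filter, 29 without blood- and cardiomyocyte-positive cells, 2 with limma, 4 in run 2 (1 mutant sample, taken to vary like the 2 controls), 0 in run 3 and 22 without samples of under 20 cells. Between stages 16 passed, and 35 with DESeq2. For the interaction 0 passed, against 4 with DESeq2, 5 with no filter, 4 without blood- and cardiomyocyte-positive cells, 1 without cells over 10% mt- UMIs and 2 with the male share.

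Among lineages, endothelial cells had 22, and 37 with DESeq2. Neural cells had 9, against 4 on total counts, 5 with DESeq2 and 5 with 1 marker more. Paraxial cells had 18, and 8 with 1 marker more. Proepicardial cells had 7, against 1 on total counts, 4 with DESeq2, 17 with no filter and 2 from samples of at least 50 cells. Second heart field cells had 10, against 6 with 1 marker more and 2 from samples of at least 50 cells, and splanchnic cells 11, against 6 on total counts, 20 with DESeq2 and 4 with 1 marker more. For genotype within classes, cardiomyocyte cells had 7, against 11 with no filter and 4 with 1 marker more. Blood cells had 0, and 3 with no filter. Second heart field cells had 0, against 6 with DESeq2 and 12 with no filter, and splanchnic cells 0, against 1 and 9. Paraxial cells had 25, and 16 with no filter.

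Leaving out 1 sample at a time gave 16 to 38 over all stages (most without the E9.5 control of 6 cells, fewest without a run 1 control), 6 to 22 at E9.5 (fewest without a run 1 control, most without the control of 6 cells), 0 to 0 at E8.0, 12 to 20 between stages and 0 to 2 for the interaction. Within classes it gave 3 to 8 in cardiomyocyte, 9 to 33 in paraxial, 0 to 5 in second heart field, 0 to 0 in blood and splanchnic cells and 19 to 36 in cells of no class. Between lineages it gave 88 to 94 in cardiomyocyte, 102 to 104 in blood, 20 to 25 in endothelial, 1 to 9 in neural, 12 to 22 in paraxial, 3 to 8 in proepicardial, 8 to 13 in second heart field and 9 to 16 in splanchnic cells.

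Among the genes named by the rule in the processing notes, values called in either setting that changed sign were these. Between stages in run 1 alone: mt-Nd4l -0.31, mt-Co1 0.23, mt-Rnr1 0.38, mt-Rnr2 0.21, Cox5a -0.21, Cox7a2 -0.22 and Ndufa4 -0.13. Between blood and cells of no class on total counts: mt-Nd3 -0.70, mt-Nd4l -0.10, mt-Nd5 -0.58, mt-Co1 -0.54, mt-Co2 -0.19, mt-Co3 -0.080, mt-Atp6 -0.16, mt-Atp8 -0.58, mt-Rnr1 -0.64, mt-Rnr2 -0.74, Sdha -0.19, Sdhb -0.60, Cox5a -0.11, Cox7a2l -0.68, Atp5g2 -0.59, Atp5g3 -0.13 and Ndufa4 -0.31. Over all members, 50 changed sign in blood on total counts and 9 between stages in run 1 alone. In splanchnic cells with 1 marker more, Cox4i2 had -0.24. Of the values recomputed for the genes named by the rule, 17812 kept direction and side of the threshold or moved by less than the spread, 837 lost a call, 323 gained one, 558 moved further and 25, called in either setting, changed sign. Genes of a few CPM, such as mt-Td, are limited by depth.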
